A study of Mus musculus with 2 samples.

Results

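The genes described here encode the proteins of the cytoplasmic ribosome. They were taken as every feature whose symbol begins with Rpl or Rps followed by a digit, by p and a digit, or by a, leaving out the Rps6k kinases and symbols that contain -ps, which mark pseudogenes. This gave 86 of the 31054 features counted. Of these, 77 were core ribosomal protein genes, 46 of the large and 31 of the small subunit, 8 were paralogs of a core gene (Rpl3l, Rpl22l1, Rps27l, Rpl36al, Rpl39l, Rpl10l, Rps27rt and Rpl7l1), and 1, Rps19bp1, encodes a protein that is not a ribosomal protein. 9 features with -ps would have matched otherwise. Fau, which encodes a ribosomal protein fused to a ubiquitin-like sequence, and Rack1 are outside the symbols and are described with the related genes near the end.

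The study followed regeneration of a resected mouse rib. The control library came from Sox9:CreER;R26:tdT;Smof/+ mice and the other, the Smo cKO library, from Sox9:CreER;R26:tdT;Smof/f mice, so that both carried the tamoxifen-dependent Cre under Sox9 and the tdTomato reporter and differed in whether 1 or both copies of Smo, the signal transducer of the Hedgehog pathway, were floxed. Both groups received tamoxifen on days -7 to -5 and lost 3 mm of rib, and the tissue was taken at 4 days post injury (dpi) from 3 pooled animals, 8 to 12 weeks old, per genotype. Recombination is confined by design to cells with Sox9:CreER activity, most cells of either library need not carry it, and cells were not assigned to single animals here, so that a difference between animals, genetic background included, and one between genotypes cannot be told apart.

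Single cells were profiled by droplet RNA sequencing, and each value is a number of unique molecular identifiers (UMIs), each standing for 1 captured RNA molecule. With cells of at least 200 detected genes and under 10% of UMIs on mitochondrial genes, 10057 control and 9507 Smo cKO cells remained, with medians of 8367 and 9092 UMIs per cell, and 608 and 604 of them had a barcode found in both libraries. Smo itself was at 17.3 UMIs per 1000000 (CPM) in the control library, from 1801 UMIs, and 10.7 CPM in the Smo cKO library, from 1183. Each genotype has 1 library, so there is no replicate check and no test of any difference between them. The 95% intervals given are exact Poisson (levels and ratios) or Clopper-Pearson (shares) intervals that cover counting error only. In each class cells were added up within a library. A class was a group of cells that met at least 3 of 8 markers of its type and fewer of any other class. The lead had to be at least 2 markers only over classes of another lineage. The 6 classes with at least 50 cells in both libraries are called connective-like, macrophage or monocyte-like, neutrophil-like, osteoclast-like, endothelial-like and differentiating muscle-like, and in no class did the 10 genes most raised over other cells include a marker of another class.

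A ribosome holds 1 copy of nearly every ribosomal protein, bound to ribosomal RNA in a large subunit that forms peptide bonds and a small subunit that reads the mRNA. The mRNAs of these genes are short, abundant in growing cells and mostly begin with a run of pyrimidines, the 5′ terminal oligopyrimidine or TOP sequence, through which the mTOR pathway adjusts their translation. Ribosomal protein mRNAs therefore take a large part of all the molecules captured from most cell types, less in cells that have stopped making ribosomes, such as mature neutrophils.

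The start regions of the genes share these features. A sequence of 250 bases before to 50 bases after the annotated start was found in RefSeq (GRCm38.p6) for 57 of the 77 core genes, and the entries missing include those of Rpl3, Rpl7, Rpl8, Rpl17, Rpl21, Rpl23a, Rpl29, Rpl30, Rpl32, Rpl36, Rplp1, Rps14, Rps20, Rps27a and Rps29. Shown are the 25 bases before and 25 after the annotated start for the core genes whose ratios between the libraries stood at the ends of the range described below and for Rpl27a, which has the longest pyrimidine run. Capitals mark the longest run of C and T that opens with C within 15 bases of the start:
Rpl27a (chr7:109519170-109519219, plus strand): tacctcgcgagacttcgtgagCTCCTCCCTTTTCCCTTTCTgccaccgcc
Rpl15 (chr14:18270962-18271011, minus strand): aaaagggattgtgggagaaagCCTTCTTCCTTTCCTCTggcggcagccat
Rpl4 (chr9:64173362-64173411, plus strand): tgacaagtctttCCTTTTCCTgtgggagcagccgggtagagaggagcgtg
Rpl5 (chr5:107900503-107900552, plus strand): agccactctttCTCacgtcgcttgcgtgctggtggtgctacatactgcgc
Rps28 (chr17:33824538-33824587, minus strand): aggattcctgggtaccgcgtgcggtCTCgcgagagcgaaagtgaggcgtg
Rps21 (chr2:180257354-180257403, plus strand): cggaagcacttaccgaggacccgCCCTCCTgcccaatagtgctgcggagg
Rpl37a (chr1:72711235-72711284, plus strand): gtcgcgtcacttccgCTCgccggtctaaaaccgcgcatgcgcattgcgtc
Rps3a1 (chr3:86142644-86142693, minus strand): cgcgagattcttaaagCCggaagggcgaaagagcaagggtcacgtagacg

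A run of at least 8 pyrimidines of this kind was present in 24 of the 57 core genes (42.1%), against 11.2% of 27025 promoters. In 12 of them (21.1%) the annotated start base was a C followed by at least 4 pyrimidines, against 2.49% of all promoters. The sequence CCGGAAG, the core of many ETS-factor sites, was found on either strand in 23 of the 57 (40.4%, against 9.12%) and AAGATGG, part of the YY1 motif, in 8 (14.0%, against 6.48%). None of the 57 held TATAAA in the 50 bases before the start, which 2.88% of all promoters did. Just after the annotated start, outside that window, Rpl36a, Rplp0 and Rps2 did hold it. These are matches of letters around annotated starts, and the start in use can lie some bases away. In the sequences above, the capitals start 4 bases before the annotated start in Rpl27a and Rpl15 and 13 before in Rpl4. In Rpl4 and Rpl5 the pyrimidines continue upstream of the capitals, beyond the 15 bases searched, and the marked runs of Rps28, Rpl37a and Rps3a1 are short.

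Together the 86 genes took 31.0% of all control UMIs and 28.8% of all Smo cKO UMIs. Cell classes differed more than the libraries did. The share was lowest in the neutrophil-like cells, at 16.2% in control and 16.1% in the Smo cKO library, second lowest in the macrophage or monocyte-like cells, at 27.3% and 25.1%, and highest in the differentiating muscle-like cells, at 36.9% and 36.1%. This order of the 3 classes was the same in both libraries, and the distance between the lowest and highest class was 20.7 percentage points in control cells. The endothelial-like (30.5% and 28.6%), connective-like (30.9% and 28.7%) and osteoclast-like cells (32.2% and 27.3%) lay between, in an order that was not shared by the libraries. These are shares of summed UMIs, in which deep cells weigh more. The median neutrophil-like cell had 8.12% in control and 8.70% in the Smo cKO library, well below the summed share. The median connective-like cell had 31.4% and 28.1%, close to it. No class lacks ribosomal protein mRNA, so no share could be set against a class that shows only free RNA.

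**Figure D1:**
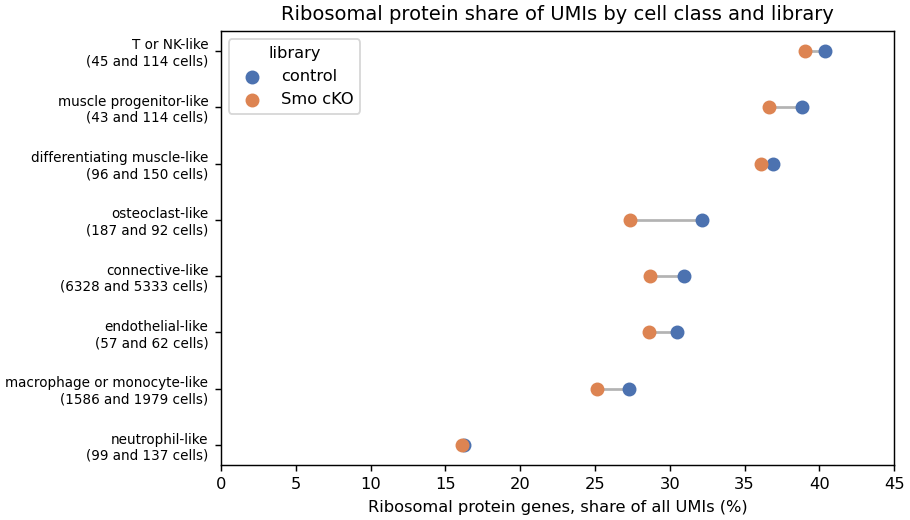
Share of all UMIs on the 86 ribosomal protein genes (%, horizontal axis) in each class of cells (vertical axis, with the control and Smo cKO cell numbers), 1 point for each library joined by a line, the T or NK-like and muscle progenitor-like classes included. The neutrophil-like cells are lowest at 16.2% and 16.1%, and the Smo cKO point lies left of the control point in every class shown.

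The share was lower in the Smo cKO library in all 6 classes, by a small amount. The log2 ratio of Smo cKO to control was -0.11 in the connective-like cells (interval -0.111 to -0.109), -0.12 in the macrophage or monocyte-like cells, -0.24 in the osteoclast-like cells, -0.09 in the endothelial-like cells and -0.03 in the differentiating muscle-like cells. In the neutrophil-like cells, of which there were 99 and 137, it was -0.01 with an interval of -0.03 to 0.01, so that no difference could be told from counting error there, and it was above 0 when cells counted equally (0.057) or had to meet 4 markers (0.097). 2 classes of at least 40 cells, added after seeing the data, gave 40.4% and 39.1% in T or NK-like cells and 38.8% and 36.7% in muscle progenitor-like cells. The large subunit genes took 1.29 times the UMIs of the small subunit genes in the control library and 1.30 times in the Smo cKO library, and between 1.17 and 1.33 times in the single classes.

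Depth moved with this difference. The median connective-like cell had 11499 UMIs in control and 14206 in the Smo cKO library. Among connective-like cells with 200 to 2000 detected genes the share was 34.5% in 1299 control cells and 27.5% in 746 Smo cKO cells. With over 2000 and at most 4000 detected genes it was 31.1% and 28.3%, and with over 4000 it was 30.1% and 29.1%. The control share thus fell with depth while the Smo cKO share rose, and the part of depth in the difference was not tested. In the macrophage or monocyte-like cells the shares were 25.7% and 23.6% at 200 to 2000 genes and 32.8% and 29.5% above 2000 and up to 4000.

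Connective-like cells with at least 1 UMI of the tdTomato transcript, 49 in control and 117 in the Smo cKO library, had ribosomal protein shares of 30.4% and 29.3%. The cells without one had 30.9% and 28.6%, so the libraries were ordered the same way with and without a tdTomato UMI. A cell without such a UMI can still express the reporter, so this split does not separate recombined from other cells.

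1 gene departed from the others. Rpl29, which encodes a small basic protein of the large subunit also described as a heparin-binding protein, lies on GRCm38 chromosome 9 from 106429454 to 106431568 on the plus strand. Over all cells it was at 145 CPM in the control library, the lowest of the 77 core genes, and at 903 CPM in the Smo cKO library, from 15070 and 100079 UMIs. The log2 ratio was 2.64 (interval 2.62 to 2.67). In the connective-like cells it was at 145 and 927 CPM, a log2 ratio of 2.67 (2.65 to 2.70), and only 0.195% of the 2568 genes tested there were at least 4-fold higher in the Smo cKO library.

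Every class showed it, the hematopoietic ones included. The levels of Rpl29 in control and the Smo cKO library were 108 and 599 CPM in macrophage or monocyte-like, 121 and 721 CPM in osteoclast-like, and 56.0 and 226 CPM in neutrophil-like cells, the last from 9 and 76 UMIs. In endothelial-like cells the levels were 180 and 1240 CPM, and in differentiating muscle-like cells 193 and 1206 CPM. The log2 ratios were 2.48, 2.58, 2.01 (interval 1.01 to 3.19), 2.78 and 2.64. The T or NK-like cells (84.1 and 1002 CPM) and the muscle progenitor-like cells (215 and 1149 CPM) had 3.58 and 2.42. Only 13.3% of the 45 control T or NK-like cells held an Rpl29 UMI, so the 3.58 rests on few control UMIs. Differentiating muscle-like cells were highest and neutrophil-like cells lowest in level for most core genes, and Rpl29 kept that lower end in both libraries.

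The log2 ratio of Rpl29 exceeded the median core gene by 1.99 to 2.87 over the 6 classes. Of the 1120 genes that reached 50 CPM in a library in every class, Rpl29 was the 1 gene that was at least 4-fold higher in the Smo cKO library in all of them (0.0893%). By size of the log2 ratio it ranked 2 among the 2568 genes of the connective-like cells, 3 in macrophage or monocyte-like, osteoclast-like and differentiating muscle-like cells, 14 in endothelial-like and 39 in neutrophil-like cells. Connective-like cells with and without a tdTomato UMI had 140 and 145 CPM in control and 953 and 926 CPM in the Smo cKO library. When each cell was thinned to 1000 UMIs, leaving out 91 control and 46 Smo cKO connective-like cells that were shallower, Rpl29 was found in 13.0% of control and 55.4% of Smo cKO cells (before thinning, in 75.7% of control cells).

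The genes beside Rpl29 did not share its ratio. Within 500000 bases on either side of it lay 37 features, of which 12 were at 10 CPM or more, with log2 ratios from -0.37 (Rbm15b) to 0.34 (Parp3) and a median of 0.19. Ribosomal protein genes have many processed copies. Reads that match more than 1 counted gene are not counted, so a level can depend on how much is shared with counted features. Of the 60-base stretches in the last 500 bases of Rpl29, 65.1% also occurred in other genes, counted here or not. This was close to the median of 64.4% over the core genes. Matches on either strand of the other transcripts were included and not separated, so these are not shares of reads left uncounted. 43 core genes shared at least 50% and 10 shared none. Sharing with genes that are not counted can leave a high level: Rpl15 shared 97.5%, none with counted features, and was at 3231 CPM in control. For Rpl29, 63.7% of its stretches occurred in other counted features, where the median core gene had 0 and 31 of the 77 had any. By this share Rpl29 ranked 10 among the core genes. Rpl10 and Rpl5 had 100%, with log2 ratios over all cells of -0.06 and 0.18. The core genes ranked above Rpl29 by this share were at 849 CPM (Rpl5) to 6092 CPM (Rps18, 85.3%) in control, with Rpl10 at 4238 CPM. High levels were thus also found among genes that share much with counted features. The part of shared sequence in the level of Rpl29 was not tested. Gm17669, which holds 31.1% of the Rpl29 stretches, was at 16.6 CPM in the Smo cKO library, lower than in the control library by a log2 ratio of -0.59, and Uimc1, which holds 44.4%, was at 27.2 and 25.2 CPM.

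Another feature of this kind was higher in the Smo cKO library. Gm10036, which holds 24.0% of the stretches of Rpl11, a large subunit protein, was at 18.3 CPM in control and 73.8 CPM in Smo cKO cells, from 1904 and 8180 UMIs, with a log2 ratio of 2.01. A total of 28 features outside the members hold at least 20% of the stretches of one, and Gm10076, which shares 40.4% of those of Rpl41, was at 323 and 239 CPM (-0.43).

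Within the Smo cKO library, Rpl29 was not raised alike in all cells. Connective-like cells with at least 10000 UMIs, 3690 control and 3742 Smo cKO cells, were thinned to 10000 UMIs each, which left out 2638 and 1591 shallower cells. The control cells had a median of 1 Rpl29 UMI, a highest value of 8, and a variance of 1.07 times the mean, where pure counting gives a ratio near 1. The Smo cKO cells had a median of 10, a mean of 9.26 and a variance of 2.75 times the mean. Their counts fell into a lower and a higher group, with 214 cells at 1 UMI, 120 at 3, 139 at 4, 139 at 5, and 311 and 312 cells at 10 and 11.

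**Figure D2:**
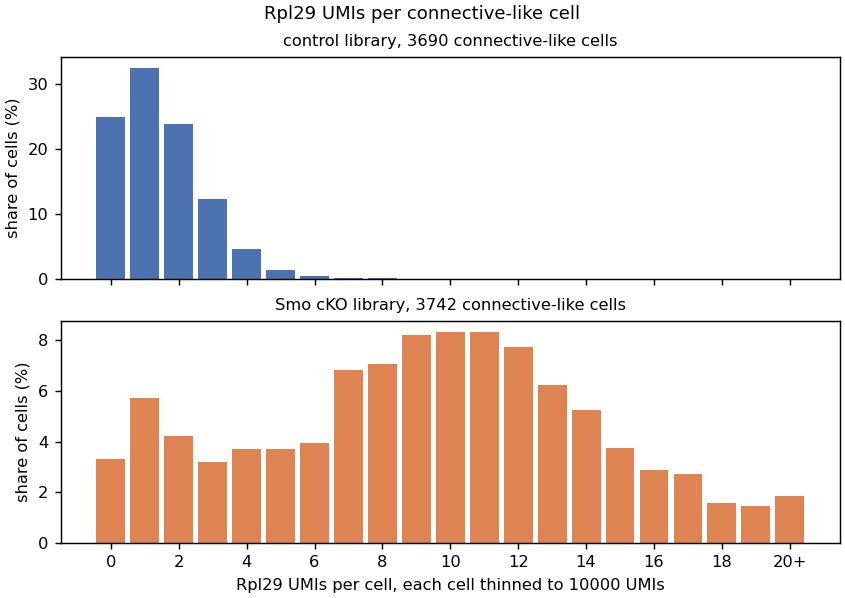
Share of connective-like cells (%, vertical axes, on separate scales) by their Rpl29 UMIs after thinning to 10000 UMIs (horizontal axis; the last bar holds 20 or more), for the control and the Smo cKO library. Control cells lie at 8 UMIs or fewer, and Smo cKO cells form a peak at 1 UMI and a second at 10 to 11.

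4 or fewer Rpl29 UMIs were found in 98.1% of the control cells and in 755 Smo cKO cells, 20.2% (interval 18.9 to 21.5). Of the Smo cKO cells, 7.43% lay next to this limit, at 4 or 5 UMIs, and those at 4 are among the 755. The limit was set after seeing the counts, and at 3 or 5 UMIs the share was 16.5% or 23.9%. In the other classes of the Smo cKO library the share at 4 or fewer was 29.3% of 82 macrophage or monocyte-like cells (interval 19.7 to 40.4), 39.7% of 68 osteoclast-like cells (28.0 to 52.3), 20.8% of 24 endothelial-like cells (7.13 to 42.2) and 11.1% of 72 differentiating muscle-like cells (4.92 to 20.7). In muscle progenitor-like cells it was 7.89% of 38 (1.66 to 21.4). These are the deepest cells of their classes, and 1897, 24, 38, 78 and 76 shallower ones were left out. Cells at 4 or fewer UMIs were thus found in each of these classes, some by as few as 3 or 5 cells. Among the 77 core genes, the ratio of this spread (variance over mean) between the libraries was 2.57 for Rpl29, 1.14 for the next, Rpl4, and 0.963 for the median gene.

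The remaining ribosomal protein genes differed far less than Rpl29 between these groups. Smo cKO connective-like cells with 3 or fewer Rpl29 UMIs, 616 cells, and with 6 or more, 2848 cells, had ribosomal protein shares of 28.7% and 28.9%, against 30.4% in the control cells with at least 10000 UMIs. The median cell of these groups had 17064.5, 18404 and 16586.5 UMIs. Rpl29, on which the cells were chosen, was at 196 and 1122 CPM. Between the low and the high cells none of the other 76 core genes differed by 25% or more, against 6.79% of 2563 genes. Their log2 ratios of low to high cells ran from -0.11 (Rpl36) to 0.08 (Rplp0), with a median of -0.01. The intervals of Rpl36 (-0.13 to -0.10), Rplp0 (0.07 to 0.09) and some other genes left out 0, so small differences were present. Against the control cells the median was -0.06 in both the low and the high cells, and 60 and 63 of the 76 genes were below the control. The same count over all genes was not made for these groups. Single genes could differ more between the groups, as Rps25 did with -0.14 in the low and -0.04 in the high cells.

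**Figure D3:**
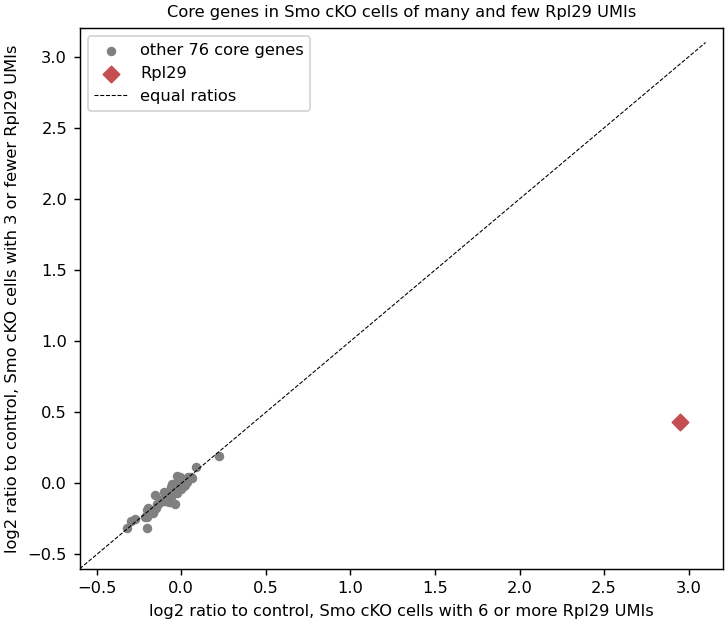
Each gray point is 1 of 76 core genes and the red diamond is Rpl29, with the log2 ratio to control connective-like cells in Smo cKO cells with 6 or more Rpl29 UMIs on the horizontal and in those with 3 or fewer on the vertical axis; the line marks equal values. The gray points follow the line, with medians of -0.06 on both axes, and Rpl29, by which the cells were chosen, lies at 2.95 and 0.43.

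Gm10036 went the other way from Rpl29. It was at 281 CPM in the low and 29.9 CPM in the high cells, and at 17.7 CPM in the control cells. 2 or more UMIs of Gm10036 were found in 70.6% of the low cells, 4.07% of the high cells and 1.38% of the control cells, thinned to the same depth. Gm17669 was at 27.2 CPM in the low cells, near the control value of 25.9, and at 15.1 CPM in the high cells. Rpl11 was at 3435 and 3585 CPM. Smo was at 12.9 and 11.6 CPM, against 18.9 in the control cells. Transcripts of red blood cells moved with the groups too: Hba-a1 was at 748 CPM in the low and 341 CPM in the high cells, and Hbb-bt at 297 and 135 CPM. So did the interferon-induced genes Isg15 (71.3 and 184 CPM) and Ifi27l2a (113 and 246 CPM), the acute phase gene Saa3 (106 and 32.7 CPM) and Gm13305 (9.43 and 55.5 CPM). The part of these genes in the result was not tested. Cells of 1 library are not replicates, and these values describe 3 pooled animals.

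The other core genes were slightly lower in the Smo cKO library as a group. In the connective-like cells 70 of the 77 core genes had a log2 ratio below 0, with a median of -0.09 where the median of all 2568 genes was 0.06, and 23.4% of those genes lay below the core median. Taking a gene as called where one library was at least 25% above the other, 1 core gene was called higher in the Smo cKO library, Rpl29, against 8.57% of all genes tested, and 1 was called lower, Rps28, against 4.32%. The other core genes differed by less than this. Among connective-like cells with at most 2000 detected genes, 33 core genes were called lower, against 11.1% of the 2506 genes tested there.

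In the macrophage or monocyte-like cells the core median was -0.10, where that of all genes was -0.04, and 67 core genes were below 0. Of all genes tested there, 40.8% lay below the core median. 1 core gene was called higher, Rpl29 (against 9.68% of genes), and none lower (13.0%). The osteoclast-like cells had the lowest core median, -0.23 where all genes had 0.09, with 75 core genes below 0 and 13.9% of all genes below the core median. There 12 core genes were called lower (against 7.36% of genes), namely Rpl11, Rpl30, Rpl35, Rpl36, Rpl37, Rpl37a, Rpl41, Rps3a1, Rps26, Rps27, Rps28 and Rps29, and 1 was called higher, Rpl29 (19.2%). This class had 187 and 92 cells.

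The endothelial-like cells had a core median of -0.09 where all genes had -0.02, with 64 core genes below 0. The differentiating muscle-like cells had one of -0.02 where all genes had 0.09, with 46 core genes below 0. Of all genes tested, 41.5% and 37.7% lay below these core medians. In the endothelial-like cells Rpl29 was called higher (against 19.0% of genes) and Rps28 lower (18.6%), and in the differentiating muscle-like cells Rpl29 was called higher (25.5%) and no core gene lower (15.6%). The neutrophil-like cells had a core median of 0.02, the same as all genes, and 37 core genes below 0. In this class 49.6% of all genes lay below the core median. There 5 core genes were called higher, Rpl3, Rpl29, Rps2 and Rps6 among them, against 31.3% of genes, and Rps27 and Rps28 lower, against 32.5%, so that a large part of all genes pass this limit in so small a class.

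28 of the 77 core genes were lower in the Smo cKO library in all 6 classes, by any amount, which 6.70% of the 1120 genes were. Only Rpl5 and Rpl29 were higher in all 6, against 11.0%, and in the neutrophil-like, osteoclast-like and endothelial-like cells the interval of the Rpl5 ratio included 0. These counts share cells of the same 2 libraries in every class and say nothing of other animals.

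**Figure D4:**
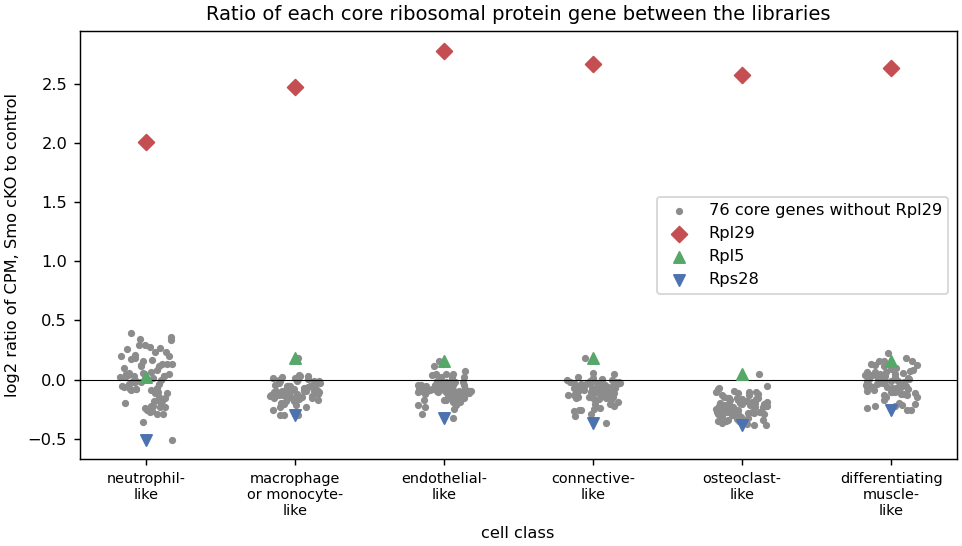
Log2 ratio of Smo cKO to control CPM (vertical axis) of each core ribosomal protein gene in each class (horizontal axis), with Rpl29, Rpl5 and Rps28 in color and a line at 0; points are spread sideways for sight. Rpl29 lies between 2.01 and 2.78 while the medians of the core genes lie between -0.23 and 0.02.

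The core genes kept an order among themselves. 13 had a ratio above the core median in all 6 classes and 16 below it. Rpl5, which with Rpl11 and 5S ribosomal RNA forms a particle that can bind Mdm2, stood highest after Rpl29. It had 857 and 973 CPM in the connective-like cells, a log2 ratio of 0.18 (0.17 to 0.20), and 606 and 688 CPM in macrophage or monocyte-like and 1182 and 1321 CPM in differentiating muscle-like cells. Among the next were Rpl4, a protein of the peptide exit tunnel, at 2145 and 2232 CPM in the connective-like cells, and Rpl15 at 3309 and 3343 CPM. Their log2 ratios were 0.06 and 0.01, above a core median of -0.09.

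At the low end stood Rps28, a small subunit protein by the path of the mRNA. Its levels in control and Smo cKO libraries were 5255 and 4066 CPM in the connective-like cells (-0.37), 5452 and 4428 CPM in macrophage or monocyte-like (-0.30), 5091 and 3898 CPM in osteoclast-like (-0.39), 3092 and 2170 CPM in neutrophil-like (-0.51), 4840 and 3854 CPM in endothelial-like (-0.33) and 6229 and 5217 CPM in differentiating muscle-like cells (-0.26). Rps28 was thus lower in each class, with the intervals of all 6 ratios below 0. Rps21 of the small subunit was at 2587 and 2092 CPM in the connective-like cells (-0.31), Rpl37a, a zinc-binding protein of the large subunit, at 6802 and 5690 CPM (-0.26), Rpl36 at 3980 and 3335 CPM (-0.26), and Rps3a1, on the small subunit platform, at 3897 and 3290 CPM (-0.24).

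Rpl5 and Rps28 were also compared between the Smo cKO cells with few and with many Rpl29 UMIs. Rpl5 was at 965 CPM in the low and 987 CPM in the high cells, against 846 in the control cells. Rps28 was at 4052 and 4031 CPM, against 5041. The log2 ratio of low to high cells was -0.032 for Rpl5 (interval -0.062 to -0.0032) and 0.0075 for Rps28 (-0.0068 to 0.022). Rpl5 was above and Rps28 below the control value in both groups of cells.

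The order of the ratios went with the length of the protein. Over the 76 core genes without Rpl29, whose coding lengths run from 75 to 1257 bases, the log2 ratio in the connective-like cells rose with coding length (Spearman 0.74). It did so in the large (0.82, 45 genes) and in the small subunit genes (0.59, 31 genes), and the coefficient was 0.43 to 0.74 over the 6 classes. The 19 shortest genes, of 369 coding bases or fewer, had a median log2 ratio of -0.20, and the 19 longest, of 624 or more, -0.03. Rpl41, the shortest with 75 coding bases, was at -0.29 and Rpl4, the longest with 1257, at 0.06. Rps3a1, with 792 bases and -0.24, and Rpl5, with 891 and 0.18, stood off the trend to either side.

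**Figure D5:**
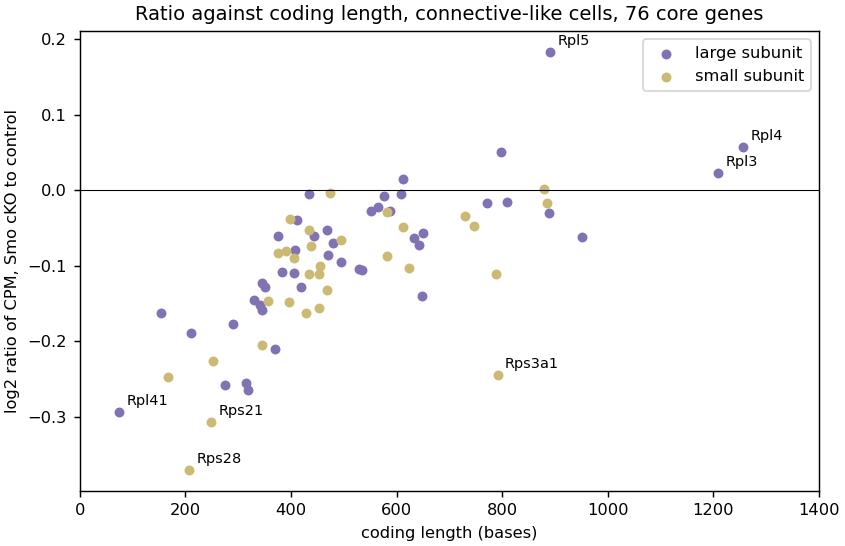
Log2 ratio of Smo cKO to control CPM in connective-like cells (vertical axis) against coding length in bases (horizontal axis), 1 point for each of 76 core genes without Rpl29, by subunit. Genes of 369 bases or fewer have a median of -0.20 and those of 624 or more one of -0.03, with Rpl5 above and Rps3a1 below other genes of like length.

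Other genes of the same range of coding lengths, 1595 in the connective-like cells, showed no such order (-0.03, and -0.13 to 0.06 over the classes). With transcript in place of coding length the coefficient over the core genes was 0.51, with the level of the gene it was -0.33, and with the share of its sequence found in other genes 0.12. Transcript length did go with the ratio in other genes, in the opposite direction. Over 2486 other genes of any length the coefficient was -0.34 in the connective-like cells. It ran from -0.46 in macrophage or monocyte-like to 0.08 in endothelial-like cells. These coefficients describe points that come from the same 2 libraries, and the comparison was chosen after seeing the data. The pyrimidine run went less with the ratio. The 24 core genes with a run of at least 8 had a median of -0.07 and the 33 without one -0.09, and the coefficient with the length of the run was 0.17.

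Among levels, a UMI counts 1 end of a molecule, so they were not divided by length. Rpl41, which encodes the shortest ribosomal protein, was the most counted core gene over all cells (16443 and 13437 CPM), followed by Rplp1, a protein of the stalk that recruits elongation factors (7976 and 7149 CPM). Rpl13 had 6934 and 6636 CPM. Rpl29, Rpl13a (813 and 811 CPM) and Rpl5 (849 and 963 CPM) were the least counted. The range over classes was widest for Rpl29 (2.10 on the log2 scale between the highest and the lowest class), Rpl13a (2.07), Rpl10a, which forms a flexible stalk of the large subunit (2.01), Rpl3, near the site where peptide bonds form (1.95), and Rpl5 (1.81). By the mean of the log2 levels of both libraries, all 5 were highest in the differentiating muscle-like and lowest in the neutrophil-like cells, though for Rpl29 the Smo cKO level was highest in the endothelial-like cells (1240 CPM). The neutrophil-like level of Rpl29 rests on few control UMIs, so its lead over Rpl13a lies within counting error. Rpl3 was at 914 and 1202 CPM in the neutrophil-like and 3933 and 4164 CPM in the differentiating muscle-like cells, and Rpl10a at 1008 and 1128 CPM and 4568 and 4061 CPM.

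The paralogs were set against their parents. For each 100 UMIs of Rpl22 there were 109 of Rpl22l1 in control and 117 in Smo cKO connective-like cells, and 116 and 117 in differentiating muscle-like cells. In macrophage or monocyte-like cells there were 59.4 and 61.0, and in osteoclast-like cells 65.5 and 88.8. Rpl22l1 was thus lower against its parent in these myeloid classes of both libraries than in the connective-like and muscle cells. This was not particular to myeloid cells, since the T or NK-like cells had 60.5 and 83.8, from 118 and 419 UMIs of Rpl22l1. The neutrophil-like cells had 93.1 and 115, from 134 and 283 UMIs of Rpl22l1.

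Rps27l, a p53-inducible paralog of Rps27, had 17.7 and 22.2 UMIs per 100 of Rps27 in the connective-like cells, 16.1 and 19.5 in macrophage or monocyte-like, 22.0 and 25.1 in osteoclast-like and 5.44 and 9.70 in neutrophil-like cells. Differentiating muscle-like cells had 13.9 and 16.8. The Smo cKO value was not higher in the endothelial-like (15.5 and 15.1), muscle progenitor-like (13.1 and 13.0) and T or NK-like cells (6.39 and 2.97). In connective-like cells with at most 2000 detected genes the value of both libraries together was 9.21 in place of 19.7, so this ratio depends on which cells are taken. In the connective-like cells Rps27l was at 863 and 926 CPM and Rps27 at 4886 and 4177 CPM.

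Rpl36al had 31.5 and 35.9 UMIs per 100 of Rpl36a in the connective-like cells and 24.2 and 24.6 in the differentiating muscle-like cells. Rps27rt shares 90.8% of its 60-base stretches with other genes, Rps27 among them. It had 6.60 and 6.77 UMIs per 100 of Rps27 in the connective-like cells, and its reads cannot be told with certainty from those of Rps27. Rpl7l1, which acts in making the large subunit, was at 28.7 and 36.5 CPM in the connective-like cells.

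3 paralogs known from muscle or testis were nearly absent. Rpl3l, a muscle form of Rpl3, had 17 and 18 UMIs over all cells, of which 0 and 3 were in differentiating muscle-like cells. Rpl39l had 176 and 167 UMIs, 151 and 145 of them in connective-like cells. Rpl10l had 0 UMIs in either library, with upper interval limits of 0.0354 CPM in control and 0.0333 CPM in Smo cKO cells. Rps19bp1 was at 59.0 and 61.9 CPM over all cells.

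Genes that work with the ribosome were less uniform. In the connective-like cells the 14 genes for elongation factors and other TOP mRNAs had a median log2 ratio of 0.03, which turned to -0.026 when ratios were scaled by the median gene and to -0.16 in cells with at most 2000 detected genes. Fau, the gene of the small subunit protein eS30, was at 3338 and 3097 CPM (-0.11), Rack1, a protein on the small subunit, at 1357 and 1306 CPM (-0.06), and Eef1a1, which brings aminoacyl-tRNA to the ribosome, at 5013 and 5088 CPM (0.02).

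The genes of the mitochondrial ribosome had a higher median than the core genes. Of 78, 41 passed 50 CPM in the connective-like cells, with 1 higher by the same limit of 25%, Mrpl42 (0.56; 8.57% of all genes were), none lower and a median of 0.14, where all genes had 0.06. In the macrophage or monocyte-like cells the median was also 0.14, with 5 of 43 higher, against 9.68% of all genes, and none lower. In the endothelial-like cells it was -0.13, so the sign was not shared by all classes.

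Of 56 initiation factor genes 33 passed, with 2 higher, Eif5a (0.33) and Eif2s1 (0.46), and none lower, and of 25 ribosome assembly genes 11 passed, with 1 higher, Ebna1bp2 (0.35, from 44.4 to 56.5 CPM), and none lower, both to be read against the 8.57% of all genes. Their medians were 0.03 and 0.13. Ebna1bp2, Nop56 (45.9 and 53.8 CPM) and Nolc1 (44.6 and 50.8 CPM) were below 50 CPM in control. These 3 assembly genes passed only through the Smo cKO library, so the limit itself fixed a ratio above 0 for them. The call of Ebna1bp2 and the assembly median of 0.13 include this. Among snoRNA host genes, Snhg6 was at 159 and 212 CPM (0.42) in the connective-like and 81.5 and 116 CPM (0.51) in the macrophage or monocyte-like cells. Snhg12, the other one of the list measured here, was at 68.7 and 69.0 CPM (0.0057) in the connective-like and 37.2 and 35.9 CPM (-0.05) in the macrophage or monocyte-like cells. In the latter class 4 of 35 initiation factor genes and 1 of 5 assembly genes, Gnl3, a nucleolar GTPase, were lower, against 13.0% of all genes, and none of either list was higher.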

How the data were processed

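The deposited files hold raw UMI counts per gene and cell, made by the authors with Cell Ranger 3.0.2 on mm10 according to the submitters' processing notes. The study's methods state that default settings were used. The 10747 control and 10512 Smo cKO barcodes were filtered to cells with 200 or more genes and under 10% mitochondrial UMIs. A cell joined the class with most of its 8 markers found, at least 3 and at least 2 more than in any class of another lineage, which left 405 and 542 mixed and 1154 and 895 unnamed cells outside. Doublets were not called, and 613 barcodes occur in both libraries. Counts were summed by class (104189394 and 110863278 UMIs in all) and given as CPM. Genes at 50 CPM or more in a library were called where one library was at least 25% above the other.

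The members and lists were chosen with earlier results of these data known. Named genes are Rpl29, 5 core genes at either end of the median over classes of the ratio less the core median, the 5 with the widest range over classes, the 3 most and 3 least counted, and all paralogs with their parents. Gm10036, Gm10076, Gm17669, Uimc1, Rbm15b, Parp3, the genes called and those of the comparison of cells low and high in Rpl29 were named after their values were seen. The T or NK-like and muscle progenitor-like classes and the comparisons by length, shared sequence, neighbors and Rpl29 per cell were added after seeing the data. Gene and coding coordinates came from GENCODE vM21 (GRCm38) and start regions from RefSeq. Scripts used Python 3.11.15, numpy 2.4.6, scipy 1.17.1 and pandas 2.3.3 and were tested on simulated data. A few genes that the rule names are not reported here. Intervals take UMIs as independent and cover counting error only.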

Additional observations from a re-analysis of the deposited data

How the results depend on the processing

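Of 291 values recomputed under another setting, 205 stayed within their counting interval or within 1.5 times a count, 82 moved and 4 turned direction, and the cause was not tested. The lower ribosomal protein share was kept in 5 or 6 of 6 classes under all settings, and Rpl29 exceeded the core median by 1.23 to 3.13. Depth and cell choice limit the rest, since connective-like cells with few detected genes differed most. No paired analysis was possible because there is 1 library per genotype. Leaving out the barcodes found in both libraries was chosen after seeing the data.

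With cells of at most 2000 genes, the log2 ratio of the share was -0.33 in connective-like and -0.13 in macrophage or monocyte-like cells (-0.11 and -0.12 in the report), 33 and 1 core genes were lower in place of 1 and 0 (11.1% and 17.4% of all genes were), Rpl29 exceeded the median by 2.63 in place of 2.76 in the connective-like cells, Rpl22l1 per 100 Rpl22 was 108 in place of 113, Rps27l per 100 Rps27 9.21 in place of 19.7, the mitochondrial ribosome median 0.39, the TOP median -0.16 and the Smo cKO spread over classes 14.0 percentage points. With UMIs outside the family as the denominator the ratios were -0.16 and -0.16, with 3 and 4 core genes lower (7.45% and 19.5% of genes) and spreads of 43.1 and 40.6. With cells counted equally they were -0.15 and -0.10, with spreads of 26.1 and 24.1. Thinned to 1000 UMIs they were -0.16 and -0.11, with 4 and 1 lower (6.38% and 19.2%) and spreads of 25.9 and 24.0. With at least 4 markers the macrophage or monocyte-like ratio was -0.10 and the spreads 23.8 and 22.0, and without the mitochondrial limit the connective-like ratio was -0.11. Scaling by the median gene gave 3 lower core genes in connective-like cells (6.89% of genes), and medians of 0.088 for the mitochondrial ribosome, -0.026 for TOP and 0.070 for assembly genes. Rps27l per 100 Rps27 was 19.3 without shared barcodes. The neutrophil-like share ratio turned to 0.097 with 4 markers and 0.057 with cells counted equally.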
